A study of Homo sapiens with 31 samples.

Results

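S100 proteins are small calcium-binding proteins, and the mRNA of 10 of their genes was followed here: S100A2, S100A4, S100A6, S100A7, S100A8, S100A9, S100A10, S100A11, S100A14 and S100P. They were found by gene symbol among the 19221 genes used from the deposited expression table, which holds 21 S100 genes in all, and all 10 were present. mRNA of 4 groups of ovarian cancer cell line libraries was sequenced, 31 libraries in all. The study grants that its main lines are disputed, C13* because of its origin and A2780 as an unlikely line of high-grade serous ovarian cancer. C13* cells carried a lentiviral control shRNA (shCON, n = 7) or a lentiviral shRNA against CEBPB (shCEBPB, n = 8), the gene that encodes the transcription factor C/EBPβ. A2780 cells (n = 8) were compared with A2780 OlaR (n = 8), a strain grown from A2780 under continued and rising exposure to olaparib, an inhibitor of the DNA repair enzyme PARP. The strain was accepted as resistant when its IC50, a measure of the dose that inhibits growth, was at least 30 times that of its parent. Each group was treated as 1 cell population. Sample titles number the shCEBPB libraries as cell lines and those of the other groups as replicates, and whether the former were separate lines is not stated. The libraries, which the study calls biological replicates, were not traced to separate cultures by the sources used here. The p-values therefore measure the spread between these libraries. The first comparison asks what changes when C/EBPβ is knocked down, and the second asks what differs in the resistant strain.

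S100 proteins bind calcium through paired EF-hand motifs, work mostly as dimers and change shape when calcium binds, which exposes a surface that grips other proteins. Inside the cell they act on the cytoskeleton, membranes and transcription factors, and some are released and signal through receptors such as RAGE and TLR4. Most of the genes lie in 1 cluster on chromosome 1, beside the genes of the cornified layer of skin, and several members are known as markers of epithelial differentiation, metastasis or inflammation.

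Of the 10 members, 7 fell into 3 patterns. S100A2, S100A14 and S100A9 were higher in shCON and A2780 OlaR and low or listed at 0 in shCEBPB and A2780. S100A8 was detected in shCON and A2780 OlaR only, at low means of 0.413 and 0.523 FPKM. S100A4 was high in the other pair of groups, and S100A6 and S100A11 were low in A2780 alone. S100P was highest in shCEBPB and lowest in A2780. S100A10 ran only from 143 to 231 FPKM over all libraries, and S100A7 was listed at 0 in 30 of 31 libraries.

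Values are FPKM, in which the fragments of a gene are divided by gene length and library total, so levels of different genes are compared per length. FPKM carry no read totals, absolute depth is unknown, and the depth of the libraries relative to their median, read from the steps of low values, ran from 0.865 to 1.23. The A2780 OlaR libraries were closer to C13* shCON than to their parent line: over 12967 genes the Pearson r of the group means of log2(FPKM + 1) was 0.993 between A2780 OlaR and shCON, 0.709 between A2780 OlaR and A2780, and 0.791 between shCEBPB and shCON. There were 154 genes with FPKM of at least 10 in every library of A2780 or of A2780 OlaR and under 0.1 in every library of the other, 111 such genes between shCON and shCEBPB, and 0 between shCON and A2780 OlaR. Library codes in the labels begin with CS for shCON, R for shCEBPB, O for A2780 and C for A2780 OlaR, and table columns were matched by them. Whether the cells match their labels was not tested, and the libraries are called by their labels. What set these populations apart other than the knockdown or the resistance cannot be told apart from them in either comparison. shCON replicate 1 is given as A2780 in 1 label field and as C13* in its title, and was kept as shCON. Libraries numbered 1 to 3 also stood apart from those numbered 4 to 8 in 2 groups, with values that do not overlap for 53.4% of genes in shCEBPB and 57.2% in A2780 OlaR, against 4.77% in shCON and 20.7% in A2780. The sources do not say what the number marks.

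CEBPB, a gene of 1 exon on chromosome 20, was lowered in part. The shCON mean was 85.8 ± 9.93 FPKM (SD, n = 7) and the shCEBPB mean 47.1 ± 9.05 (SD, n = 8), a log2 fold change of -0.87 (limma, adjusted p = 1.42e-06), with no overlap. They were 99.7 ± 7.63 in A2780 and 112 ± 11.6 in A2780 OlaR (SD, n = 8 each), a log2 fold change of 0.16 (limma, adjusted p = 0.0202), with overlap. CEBPB shares 231 exonic bases with the antisense gene CEBPB-AS1, and whether reads were counted by strand is not given in the sources used here.

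Changes were tested with limma on log2(FPKM + 1) across all genes that reached FPKM of 1 in a number of libraries equal to the smaller group, and genes with a Benjamini-Hochberg adjusted p under 0.05 were called. Of the 12006 genes tested between shCEBPB and shCON, 84.7% were called, 38.9% higher and 45.7% lower. Of the members, 8 passed the filter there and 6 were called, 2 higher and 4 lower, and 5 had libraries that did not overlap between the groups, as 66.0% of all genes had. Between A2780 OlaR and A2780, 89.8% of 12458 genes were called, 40.1% higher and 49.7% lower, and all 8 members that passed the filter were called, 7 higher and 1 lower, with 7 of them not overlapping, against 74.1% of all genes. A call was thus the usual result for a gene in these data. The members tested had a median absolute log2 fold change of 3.72 in the first comparison and 4.29 in the second, against 0.57 and 0.70 over all genes tested. A called change of at least 1 on the log2 scale was seen for 5 of the 8 members in the first comparison (29.5% of all genes) and 7 in the second (35.7% of all genes), and one of at least 4 for 4 members (2.07% of all genes) and 6 members (2.67% of all genes). Apart from the counts of at least 4, these counts and medians include S100A9 in both comparisons. All of those for the second comparison include S100P. There S100P, and in both comparisons S100A9, passed the filter only through the group where they are high and so had to differ. S100A7 and S100A8 did not pass it in either comparison. The members were chosen with earlier results known, and nothing is read from their counts or sizes against those of all genes. Neighbours in the order of the group means were compared in 1 limma fit of all 4 groups. The share of genes called there was 37.7% between shCON and A2780 OlaR, 84.3% between shCON and shCEBPB, 87.6% between shCON and A2780, 84.8% between shCEBPB and A2780 OlaR, 88.0% between shCEBPB and A2780, and 88.0% between A2780 and A2780 OlaR.

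**Figure D1:**
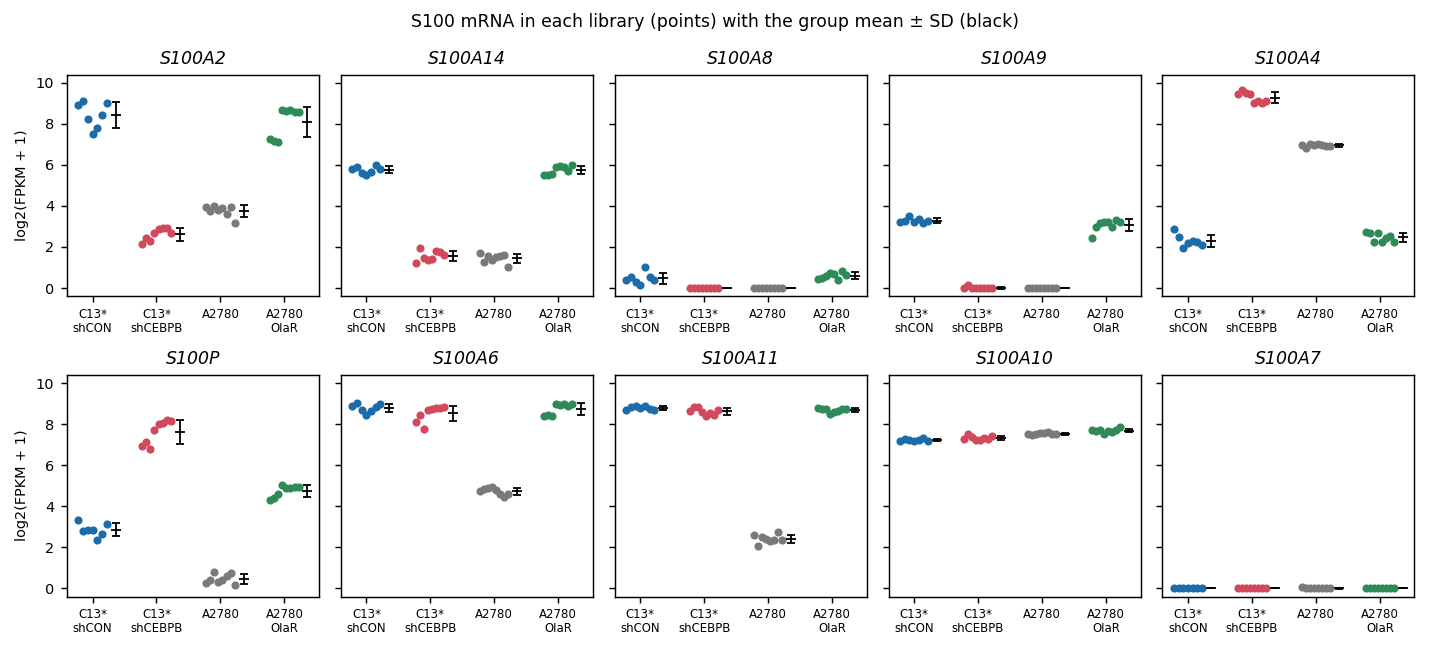
Each point is 1 library of the 10 S100 genes on the scale log2(FPKM + 1), and the black mark at the right of each group is its mean ± SD (n = 7 for shCON, n = 8 for the others). S100A2, S100A14 and S100A9 are higher in shCON and A2780 OlaR, and S100A8 is detected only there, at low level. S100A4 is high in shCEBPB and A2780, and S100A6 and S100A11 are low in A2780. S100A10 runs only from 143 to 231 FPKM over all libraries.

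The starts of the 6 members that held a motif searched for and were detected in more than 1 library are shown, as the 250 bases before the start of the MANE transcript from RefSeq on GRCh38.p14. Capitals mark letters found by a search of both strands for the C/EBP motif TTNNGCAA, the AP-1 motif TGANTCA and the TATA box TATAAA, which do not overlap each other here.
S100A2, chr1:153565845-153566094, minus strand: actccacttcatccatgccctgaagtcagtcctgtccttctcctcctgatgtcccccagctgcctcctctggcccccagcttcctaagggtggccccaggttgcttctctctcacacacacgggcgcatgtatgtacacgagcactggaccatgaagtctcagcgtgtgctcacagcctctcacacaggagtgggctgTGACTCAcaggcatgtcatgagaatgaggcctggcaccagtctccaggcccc
S100A9, chr1:153357604-153357853, plus strand: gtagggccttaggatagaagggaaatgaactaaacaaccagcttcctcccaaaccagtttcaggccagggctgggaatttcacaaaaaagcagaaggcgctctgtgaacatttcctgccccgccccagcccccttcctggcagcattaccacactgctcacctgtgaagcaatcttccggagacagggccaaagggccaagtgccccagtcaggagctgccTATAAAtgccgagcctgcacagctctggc
S100A8, chr1:153391074-153391323, minus strand: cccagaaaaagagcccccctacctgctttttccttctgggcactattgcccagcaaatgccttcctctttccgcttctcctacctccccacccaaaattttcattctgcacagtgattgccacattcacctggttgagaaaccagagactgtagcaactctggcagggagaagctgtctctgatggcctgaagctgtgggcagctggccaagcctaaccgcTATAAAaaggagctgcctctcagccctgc
S100A4, chr1:153545807-153546056, minus strand: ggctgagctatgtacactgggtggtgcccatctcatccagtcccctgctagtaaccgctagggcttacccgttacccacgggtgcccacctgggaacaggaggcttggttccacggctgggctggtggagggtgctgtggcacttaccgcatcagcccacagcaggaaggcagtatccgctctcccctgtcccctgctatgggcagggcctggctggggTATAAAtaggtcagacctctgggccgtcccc
S100P, chr4:6693628-6693877, plus strand: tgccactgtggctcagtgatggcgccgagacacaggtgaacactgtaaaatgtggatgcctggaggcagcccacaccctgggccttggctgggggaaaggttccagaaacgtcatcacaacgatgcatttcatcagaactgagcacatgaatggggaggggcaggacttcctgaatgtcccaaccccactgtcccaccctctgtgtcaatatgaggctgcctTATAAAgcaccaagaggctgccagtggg
S100A11, chr1:152037005-152037254, minus strand: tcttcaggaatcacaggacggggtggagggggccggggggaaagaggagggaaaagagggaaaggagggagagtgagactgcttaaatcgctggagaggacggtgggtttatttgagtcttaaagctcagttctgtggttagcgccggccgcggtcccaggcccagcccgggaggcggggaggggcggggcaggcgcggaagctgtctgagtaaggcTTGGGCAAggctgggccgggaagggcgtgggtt

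All 10 members matched a RefSeq window. The TATA box letters were found in 5 of the 10, with the first base 31 bases before the start in S100A4, 29 in S100A8 and S100A9, and 28 in S100A7 and S100P, against 10.7% of 35116 promoter windows of this length. These 5 genes do not share a pattern of expression: S100A4 was high where S100A8 and S100A9 were listed at or near 0. The AP-1 letters were found in S100A2 only, as TGACTCA beginning 52 bases before the start (6.57% of all windows), and the C/EBP letters in S100A11 only, as TTGGGCAA beginning 33 bases before it (9.05% of all windows). A match is a description of these letters, and the windows say nothing of binding.

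S100A2 and S100A14 are known from the epithelium of skin and other surfaces, where S100A2 is a target of p63 and S100A14 sits near cell contacts. S100A2, on chromosome 1 from 153561108 to 153567890, had FPKM of 488, 555, 299, 180, 223, 347 and 512 in shCON replicates 1 to 7. The shCEBPB replicates 1 to 8 had 3.39, 4.33, 3.85, 5.34, 6.29, 6.69, 6.47 and 5.32. The lowest shCON library was far above the highest shCEBPB library. S100A2 fell by 5.83 on the log2 scale (SE 0.22, limma adjusted p = 2.23e-14), and the mean of 5.21 ± 1.25 (SD, n = 8) was 1.40% of the shCON mean of 372 ± 148 (SD, n = 7).

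In A2780 the same gene ran from 7.89 to 15.0 (median 13.4). In A2780 OlaR replicates 1 to 8 it was 153, 143, 138, 407, 392, 405, 375 and 381. The groups did not overlap, and the resistant libraries lay at 2 levels, with replicates 1 to 3 below all others. S100A2 rose by 4.32 (SE 0.25, limma adjusted p = 2.06e-12), from 12.8 ± 2.34 to 299 ± 129 (SD, n = 8 each). Within the numbers 1 to 3 the rise was 3.28 (adjusted p = 2.52e-11), and within 4 to 8 it was 4.94 (adjusted p = 3.57e-15). S100A2 was the most variable abundant member, with a coefficient of variation of 39.8% in shCON and 43.0% in A2780 OlaR. In the order of the means, shCON and A2780 OlaR did not differ beyond their spread (log2 difference 0.35, 95% interval -0.16 to 0.87, adjusted p = 0.291 in the limma fit of all 4 groups), and A2780 stood above shCEBPB by 1.15 (adjusted p = 6.43e-05), with no overlap.

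S100A14, on chromosome 1 from 153614255 to 153616986, moved with S100A2 but was steadier. Its FPKM ran from 44.1 to 63.4 in shCON (median 54.5) and from 1.35 to 2.91 in shCEBPB (median 1.88). They ran from 1.05 to 2.29 in A2780 (median 1.92) and from 45.0 to 62.9 in A2780 OlaR (median 54.1). The groups lay at a high and a low level, with no overlap in either comparison. S100A14 fell by 4.19 in shCEBPB (SE 0.10, limma adjusted p = 4.86e-17) and rose by 4.29 in A2780 OlaR (SE 0.096, limma adjusted p = 4.11e-19), 26.7-fold and 30.1-fold in the means. The high groups differed by 0.0059 (95% interval -0.21 to 0.22, adjusted p = 0.979 in the limma fit of all 4 groups) and the low groups by 0.11 (-0.099 to 0.32, adjusted p = 0.313).

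S100A8 and S100A9 pair as calprotectin, a protein that binds calcium and zinc, is abundant in neutrophils and monocytes and is also made by stressed or inflamed epithelium. S100A9, on chromosome 1 from 153357854 to 153361023, had FPKM from 7.86 to 10.2 in shCON (median 8.52). It was listed at 0 in 7 of the 8 shCEBPB libraries and at 0.0983 in replicate 2. In A2780 it was listed at 0 in all 8 libraries, and in A2780 OlaR it ran from 4.41 to 8.88 (median 8.10). The groups did not overlap in either comparison. S100A9 passed the filter only through shCON and A2780 OlaR, so its levels are given as a description with no test, and the size of a difference from a group at 0 is set by the pseudocount. The mean in shCON, 8.72 ± 0.799 (SD, n = 7), was above that in A2780 OlaR, 7.49 ± 1.44 (SD, n = 8), by 0.21 (adjusted p = 0.0299 in the limma fit of all 4 groups), with overlap.

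S100A8, from 153390032 to 153391073 on chromosome 1, was detected in the same groups at lower level. Its FPKM ran from 0.112 to 1.04 in shCON (median 0.329) and from 0.291 to 0.799 in A2780 OlaR (median 0.523). All 16 libraries of shCEBPB and A2780 listed it at 0. It was under the filter and was not tested. S100A7, a psoriasis-associated member from 153457744 to 153460651 on chromosome 1, was listed at 0 in 30 libraries and at 0.0543 in A2780 replicate 1. S100A7A and S100A7L2, its related copies, were listed at 0 in every library, and reads of such copies can be split between them. The annotation lists S100A7L2 as an unprocessed pseudogene.

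Markers of white blood cells and of squamous epithelium were read beside these genes. Of 11 myeloid markers, the summed FPKM ran from 62.9 to 70.5 in shCON, 10.8 to 14.02 in shCEBPB, 79.7 to 105 in A2780 and 37.9 to 45.9 in A2780 OlaR. CD68, a lysosomal protein that many cell types make, was the only one that reached 1 in any library of shCON, shCEBPB or A2780 OlaR (means 65.4, 11.7 and 41.9). The other 10, ITGAM, CD14, LYZ, MPO, ELANE, CSF3R, CD33, SPI1, FCGR3B and PTPRC, were under 1 in every library of those 3 groups. In A2780 the leukocyte gene PTPRC had a mean of 85.9 while the myeloid-defining ITGAM, CD14, LYZ, MPO and SPI1 stayed under 1. The 8 squamous or keratinocyte markers were lower in shCEBPB and higher in A2780 OlaR, and 5 of them in the first comparison and 7 in the second passed the filter only through the group where they are high. Their summed FPKM ran from 3125 to 3708 in shCON, 222 to 528 in shCEBPB, 0.523 to 2.13 in A2780 and 2989 to 3872 in A2780 OlaR. KRT5, a basal keratin, had a mean of 1530.4 in shCON and 0.0134 in shCEBPB, and TP63, the gene of p63, had 53.1 and 0.0791. In A2780, KRT5, KRT6A and KRT16 were listed at 0 in every library. In these bulk samples fewer cells of a type and less RNA per cell cannot be told apart, and the part of these markers in the S100 values was not tested.

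The labelled ovarian carcinoma cells were also read for 8 markers of that tumour. PAX8, the lineage factor, had a mean FPKM of 6.10 in shCON, 0.536 in shCEBPB, 0.555 in A2780 and 6.002 in A2780 OlaR. EPCAM, an epithelial adhesion protein, had 111, 0.567, 1.20 and 116, and CDH1, the gene of E-cadherin, 82.9, 0.655, 0.0280 and 99.5. MUC16 stayed under 1 in every library, and WT1 stayed under 1 in every library of shCEBPB, A2780 and A2780 OlaR. The simple-epithelium keratins were highest in shCEBPB. KRT7 had 8.02, 583, 0.0626 and 9.66, KRT8 had 459, 882, 5.90 and 483, and KRT18 had 320, 535, 81.4 and 291. Of the 8 markers, 6 passed the filter in each comparison, with 3 higher and 3 lower in shCEBPB and 6 higher in A2780 OlaR, and 3 in each comparison passed only through the higher group. Among all genes tested, 84.7% and 89.8% were called. VIM, a mesenchymal filament protein, had 9.82, 342, 809 and 0.160, and COL3A1 had a mean of 358 in A2780 and was under 1 in every library of the other groups.

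S100A4 is known as metastasin, binds non-muscle myosin IIA and is linked with cell motility. The gene lies on chromosome 1 from 153543613 to 153550136, overlaps the locus of S100A3 and shares 0 exonic bases with it. In shCON replicates 1 to 7 its FPKM were 6.25, 4.51, 2.82, 3.63, 3.93, 3.74 and 3.21. The values of shCEBPB replicates 1 to 8 were 697, 793, 717, 706, 515, 549, 512 and 546. The lowest shCEBPB library was above every library of all other groups, and S100A4 was the most abundant S100 mRNA there. S100A4 rose by 6.98 (SE 0.13, limma adjusted p = 4.46e-19), from 4.01 ± 1.12 (SD, n = 7) to 629 ± 110 (SD, n = 8), which was 157-fold. In A2780 it ran from 111 to 128 (median 124), and in A2780 OlaR from 3.66 to 5.57 (median 4.62). It fell by 4.48 in the resistant libraries (SE 0.075, limma adjusted p = 3.67e-21), 26.7-fold in the means, with no overlap. The means ordered as shCEBPB, A2780, A2780 OlaR and shCON, and the last pair did not differ beyond its spread (log2 difference 0.17, 95% interval -0.055 to 0.39, adjusted p = 0.239 in the limma fit of all 4 groups).

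S100P was first found in placenta and is released by many carcinomas, where it can act on RAGE. It is the 1 member outside chromosome 1, on chromosome 4 from 6693878 to 6697170, with 2 exons in its MANE transcript. In shCON replicates 1 to 7 its FPKM were 9.01, 5.96, 6.21, 6.22, 4.14, 5.24 and 7.72. Those of shCEBPB replicates 1 to 8 were 123, 141, 109, 210, 255, 262, 288 and 286. The groups were far apart, and replicates 1 to 3 of shCEBPB lay below the other 5. S100P rose by 4.77 (SE 0.22, limma adjusted p = 3.49e-13), 32.9-fold in the means. The rise was 3.97 within library numbers 1 to 3 (adjusted p = 7.58e-09) and 5.28 within 4 to 8 (adjusted p = 6.72e-14).

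In the second comparison S100P had FPKM from 0.110 to 0.747 in A2780 (median 0.332) and from 19.0 to 31.7 in A2780 OlaR (median 28.3). The groups did not overlap. S100P was under 1 in every A2780 library and passed the filter only through A2780 OlaR, so its log2 difference of 4.29 is given as a description, and it depends on the pseudocount, being 6.25 with a pseudocount of 0.01. The direction was the same as in shCEBPB. In the limma fit of all 4 groups each step of its order stood apart without overlap. shCEBPB was above A2780 OlaR by 2.88 (adjusted p = 2.81e-16), and A2780 OlaR above shCON by 1.90 (5.16e-10). The step of 2.39 from A2780 up to shCON is given as a description. S100P passed the filter of that fit only through the other groups, and the size of this step depends on the pseudocount. S100P and S100A10 were the members detected in both groups whose shCON and A2780 OlaR libraries did not overlap.

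**Figure D2:**
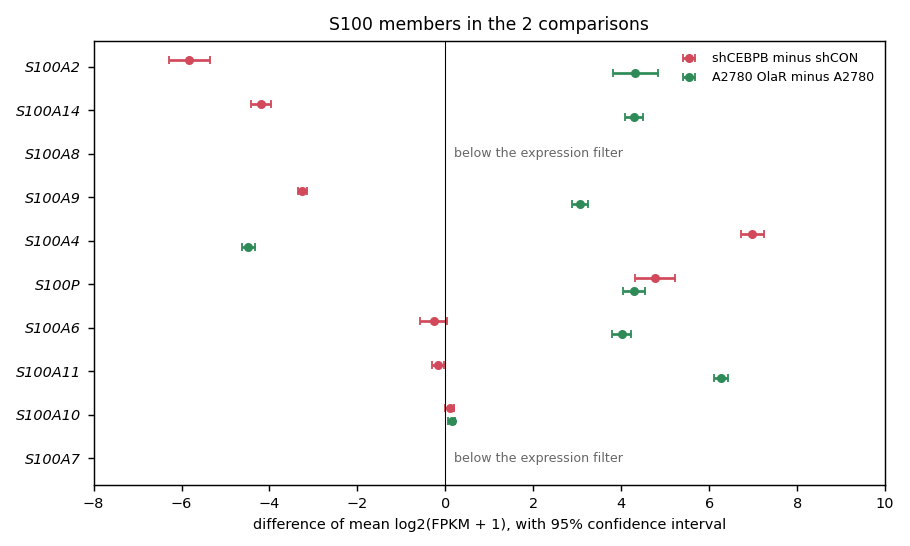
Differences of the mean of log2(FPKM + 1) with 95% confidence intervals from limma, for shCEBPB minus shCON and A2780 OlaR minus A2780. S100A2, S100A14, S100A9 and S100A4 changed sign between the comparisons, S100P was higher in both, and S100A6 and S100A11 were far from 0 in the second only; S100A7 and S100A8 were not tested, and S100A9 in both comparisons and S100P in the second passed the filter only through their higher group.

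S100A6, or calcyclin, binds the protein CACYBP and is linked with the cytoskeleton and growth. S100A11, or calgizzarin, binds annexin A1 and takes part in membrane repair. S100A6, on chromosome 1 from 153534599 to 153536244, had FPKM of 464, 526, 406, 346, 392, 460 and 506 in shCON replicates 1 to 7. For shCEBPB replicates 1 to 8 the values were 274, 351, 219, 411, 424, 435, 434 and 456. The groups overlapped, because shCEBPB replicates 4 to 8 lay within the shCON range and 2 of replicates 1 to 3 lay below it. S100A6 was not called (log2 fold change -0.26, 95% interval -0.57 to 0.043, limma adjusted p = 0.101). Within library numbers 1 to 3 the difference was -0.74 (adjusted p = 0.00176), and within 4 to 8 it was 0.035 (adjusted p = 0.717).

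Against its parent, A2780 OlaR had far more S100A6. The FPKM ran from 20.6 to 29.2 in A2780 (median 26.5). They were 334, 342, 336, 497, 484, 499, 470 and 504 in A2780 OlaR replicates 1 to 8. No libraries overlapped, and replicates 1 to 3 were again the lowest of the resistant group. S100A6 rose by 4.01 (SE 0.10, limma adjusted p = 4.29e-18), from 25.7 ± 2.98 to 433 ± 80.1 (SD, n = 8 each). In the limma fit of all 4 groups shCON and A2780 OlaR differed by 0.041 (95% interval -0.23 to 0.31, adjusted p = 0.849) and A2780 OlaR and shCEBPB by 0.22 (-0.040 to 0.49, adjusted p = 0.108). S100A6 shares 37 exonic bases with a lncRNA on the opposite strand.

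S100A11, on chromosome 1 from 152032506 to 152047907, ran from 410 to 477 in shCON (median 442) and from 333 to 459 in shCEBPB (median 391). It was 0.17 lower in shCEBPB (SE 0.067, limma adjusted p = 0.0255), with overlap. That call was lost within library numbers 1 to 3 (-0.030, adjusted p = 0.733) and without any 1 of shCON replicate 3 or 5 or shCEBPB replicate 5 or 7 (adjusted p from 0.0520 to 0.0567), and within numbers 4 to 8 the difference was -0.25 (adjusted p = 0.00165). In A2780 the FPKM ran from 3.12 to 5.65 (median 4.19), and in A2780 OlaR from 361 to 434 (median 423). S100A11 rose by 6.27 (SE 0.073, limma adjusted p = 1.33e-23), 94.0-fold in the means. Among shCON, A2780 OlaR and shCEBPB no neighbours in its order differed beyond their spread (0.11 and 0.057, adjusted p = 0.243 and 0.460 in the limma fit of all 4 groups).

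S100A10, or p11, forms a complex with annexin A2 at the cell membrane and, unlike its relatives, does not bind calcium. The gene lies on chromosome 1 from 151982915 to 151993859. Its FPKM ran from 143 to 159 in shCON (median 150), 146 to 180 in shCEBPB (median 158), 175 to 193 in A2780 (median 185) and 183 to 231 in A2780 OlaR (median 205). The spread over all 31 libraries was small, and neighbouring groups overlapped. In shCEBPB it was not called (log2 fold change 0.095, 95% interval -0.0034 to 0.19, limma adjusted p = 0.0671), and without 1 of shCON replicate 6 or shCEBPB replicate 4 or 5 it was (0.11, adjusted p from 0.0322 to 0.0450). In A2780 OlaR it was 0.15 higher (SE 0.038, limma adjusted p = 0.00127), and that call was lost when libraries were rescaled to a common sum (0.080, adjusted p = 0.0584). The order of means, A2780 OlaR, A2780, shCEBPB and shCON, differed at each step in the limma fit of all 4 groups (adjusted p = 0.00119, 2.25e-05 and 0.0382).

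**Figure D3:**
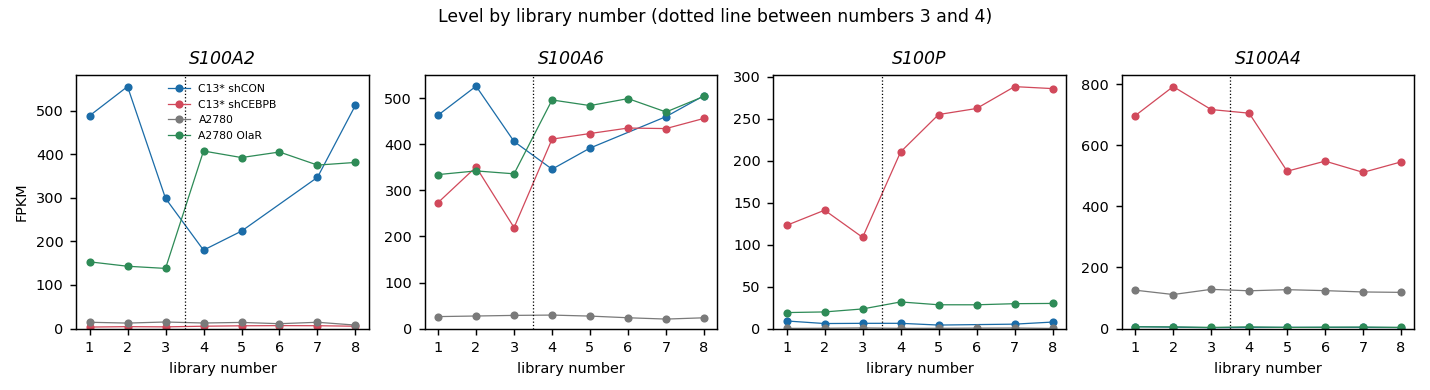
FPKM of S100A2, S100A6, S100P and S100A4 against the library number, one line for each group (shCON has no number 6), with a dotted line between numbers 3 and 4. In A2780 OlaR, S100A2 steps from 138 to 153 in numbers 1 to 3 to between 375 and 407 in numbers 4 to 8, S100P in shCEBPB steps from 109 to 141 to between 210 and 288, and no such step is seen in shCON or A2780.

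The split by library number touched some members and not others. In shCEBPB 3 of the 7 members counted lay apart between numbers 1 to 3 and 4 to 8, namely S100P (2.10-fold higher in the later numbers), S100A2 (1.56-fold) and S100A6 (1.54-fold), where 53.4% of genes lay apart and 7.32% by at least 1.5-fold. In A2780 OlaR 4 of 8 did, S100A2 (2.71-fold), S100A6 (1.45-fold), S100P (1.43-fold) and S100A14 (1.28-fold), where 57.2% lay apart and 2.25% by at least 1.5-fold. In shCON and A2780 none of the 8 and 6 members counted lay apart. S100A4, S100A9, S100A10 and S100A11 overlapped between the number ranges in every group.

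The 21 S100 genes together made the smallest total in A2780, and which of them led differed between the groups. Their summed FPKM was 1666 ± 211 in shCON (SD, n = 7), 1987 ± 110 in shCEBPB, 651 ± 20.8 in A2780 and 1630 ± 214 in A2780 OlaR (SD, n = 8 each). In each group 11 S100 genes had a mean of at least 1. In shCON, S100A6 made 26.6% of the sum, S100A11 26.5% and S100A2 22.3%, and in A2780 OlaR the same 3 genes led with 26.6%, 25.1% and 18.4%. In shCEBPB, S100A4 led with 31.7%, ahead of S100A11 with 19.9% and S100A6 with 18.9%, and S100P made 10.5%. A2780 was led by S100A13 with 36.6%, S100A10 with 28.4% and S100A4 with 18.8%. The 10 members made 0.334%, 0.405%, 0.0831% and 0.323% of all FPKM in shCON, shCEBPB, A2780 and A2780 OlaR.

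**Figure D4:**
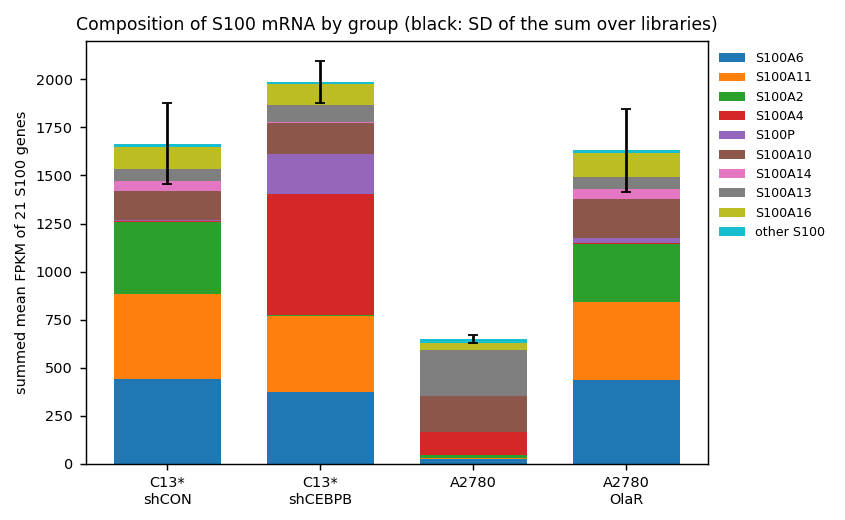
Stacked mean FPKM of S100 genes in each group, with the SD of the summed FPKM over libraries as black bars. S100A2, S100A6 and S100A11 fill most of shCON and A2780 OlaR, S100A4 and S100P take the place of S100A2 in shCEBPB, and the A2780 column is the lowest at 651.

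Of the other 12 genes of the family list, which also holds the S100P-binding protein S100PBP, 4 passed the filter in the first comparison, with 2 higher, 1 lower and 1 not called. In the second comparison 6 passed, 2 higher and 4 lower. S100A5, 1 of these 4, was under 1 in every A2780 OlaR library, passed only through A2780 and so had to differ. The shares called among all genes tested were 84.7% and 89.8%. S100A13, which takes part in the release of FGF1, had FPKM of 65.6 ± 3.65 in shCON and 91.0 ± 6.21 in shCEBPB (log2 fold change 0.47, limma adjusted p = 7.25e-08), and 238 ± 10.2 in A2780 and 59.4 ± 2.38 in A2780 OlaR (-1.99, adjusted p = 4.00e-21). S100A1, a regulator of calcium handling in muscle, had a mean of 18.0 in A2780 and 0.837 in A2780 OlaR (-3.38, limma adjusted p = 1.41e-17). S100A1 and S100A13 share 235 exonic bases on opposite strands, so reads there cannot be told apart if strand was not used. S100A16 was 36.7 in A2780 and 125 in A2780 OlaR (1.75, limma adjusted p = 5.93e-18) and was not called in shCEBPB (-0.054, adjusted p = 0.263). S100PBP was 12.3 in shCON and 6.75 in shCEBPB (-0.79, limma adjusted p = 4.02e-09), and 17.2 in A2780 and 11.2 in A2780 OlaR (-0.58, adjusted p = 1.63e-08).

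Position in the cluster did not sort the genes by pattern. In GENCODE 44 on hg38, 17 of the S100 genes lie within 1.65 megabases of chromosome 1, from S100A10 at 151982915 to S100A1 at 153632039. S100A4 and S100A2, which were high in different groups, lie close together, with 0 other S100 genes starting between the end of one locus and the start of the other. The 44 other table genes in this interval are mostly those of the cornified envelope, and 0 of the 44 passed the filter in either comparison. Their summed FPKM ran from 3.83 to 5.64 in shCON, 0.00714 to 0.138 in shCEBPB, 0.826 to 1.36 in A2780 and 1.74 to 3.36 in A2780 OlaR.

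**Figure D5:**
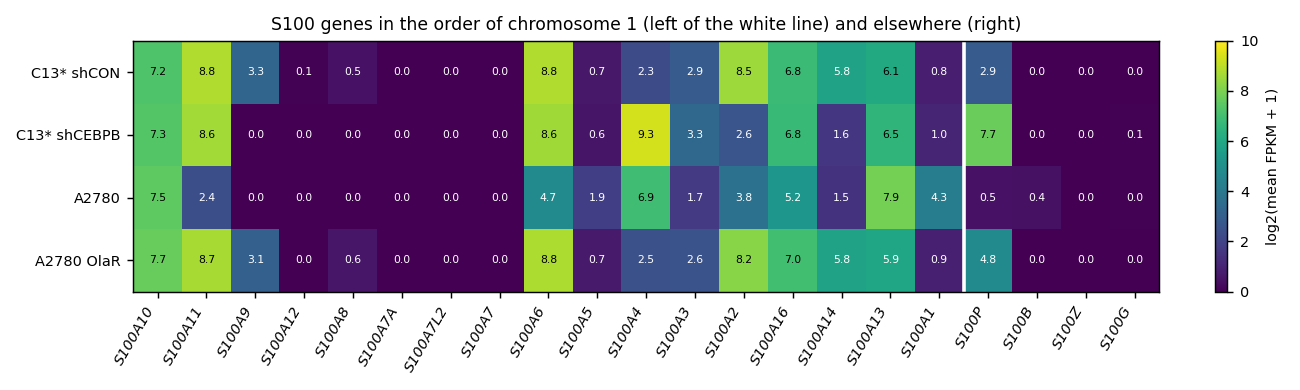
Colour and number give log2(mean FPKM + 1) of each S100 gene in each group, with the chromosome 1 genes in order of position at the left and the 4 genes on other chromosomes at the right. Neighbours such as S100A6, S100A4 and S100A2 differ in their order over the groups, while the genes from S100A12 to S100A7 are near 0 throughout apart from low S100A8 in shCON and A2780 OlaR.

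The proteins that S100 members bind were read from a list of 20 genes. In shCEBPB 18 passed the filter, with 10 higher, 4 lower and 4 not called, and in A2780 OlaR 18 passed, with 3 higher, 13 lower and 2 not called. Among all genes tested, 84.7% and 89.8% were called, and nothing is read from these counts. ANXA6 in both comparisons, KCNK3 in the first and CD36 in the second were under 1 in every library of the lower group and passed only through the higher one. ANXA2, the partner of S100A10, had FPKM of 630 ± 24.8 in shCON and 625 ± 28.3 in shCEBPB (log2 fold change -0.010, limma adjusted p = 0.808), and 247 ± 4.26 in A2780 and 594 ± 13.4 in A2780 OlaR (1.26, adjusted p = 2.91e-20). The ratio of S100A10 to ANXA2 was therefore 0.749 ± 0.0287 in A2780 and 0.346 ± 0.0181 in A2780 OlaR (SD, n = 8 each), with 0.238 in shCON and 0.256 in shCEBPB. ANXA1, the partner of S100A11, was 439 in shCON and 146 in shCEBPB (-1.60, limma adjusted p = 8.36e-12), and 1099 in A2780 and 382 in A2780 OlaR (-1.52, adjusted p = 9.36e-16). The ratio of S100A11 to ANXA1 was 1.01 in shCON, 2.73 in shCEBPB, 0.00397 in A2780 and 1.07 in A2780 OlaR.

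ANXA6, an annexin of membranes, was high in the same groups as S100A4, with a mean of 0.226 in shCON, 35.6 in shCEBPB, 24.5 in A2780 and 0.0105 in A2780 OlaR. MYH9, the heavy chain of the myosin that S100A4 binds, was 215 in shCON and 83.3 in shCEBPB (-1.36, limma adjusted p = 4.63e-13), and 123 in A2780 and 202 in A2780 OlaR (0.70, adjusted p = 1.24e-10). MYH9 thus moved against S100A4 in both comparisons. IQGAP1, a scaffold protein, rose by 1.13 in shCEBPB and fell by 0.37 in A2780 OlaR, and EZR, a membrane linker and partner of S100P, rose by 0.74 and fell by 1.10 (limma adjusted p = 3.39e-10 and 2.14e-05 for IQGAP1, and 5.39e-12 and 8.72e-19 for EZR). Of the receptors, AGER, which encodes RAGE, was 11.8 in A2780 and 3.44 in A2780 OlaR (-1.53, limma adjusted p = 1.44e-15) and 3.15 in shCON and 3.99 in shCEBPB (0.28, adjusted p = 0.0220). ALCAM, an adhesion protein, fell by 1.83 in shCEBPB and by 0.95 in A2780 OlaR (limma adjusted p = 2.48e-08 and 2.70e-10). TLR4 did not pass the filter in either comparison.

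In the C/EBP family, 6 of 7 genes passed the filter in each comparison. In shCEBPB 1 was higher, 4 were lower and 1 was not called, and in A2780 OlaR 1 was higher, 3 were lower and 2 were not called. The shares called among all genes tested were 84.7% and 89.8%. CEBPA had a mean of 2.90 in shCON and 18.7 in shCEBPB (log2 fold change 2.26, limma adjusted p = 5.73e-09). Within shCEBPB it was 2.02-fold higher in library numbers 4 to 8 than in 1 to 3. Its mean was 5.91 in A2780 and 4.94 in A2780 OlaR. CEBPG fell by 0.66 and by 1.83 and DDIT3 by 1.21 and by 2.17 in the 2 comparisons. CEBPD fell by 0.17 in shCEBPB (limma adjusted p = 0.0262) and was not called in A2780 OlaR (-0.01, adjusted p = 0.847). In the second comparison CEBPB was 0.16 higher in A2780 OlaR, with overlap.

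Genes alike to each member were found by the Pearson r of log2(FPKM + 1) over the 31 libraries among 12967 genes. Since the points share 4 groups that differ widely, high r were common and describe the order of the groups. For S100A2 the closest were ANKRD65 (0.992), EFNB1 (0.991) and ENTPD6 (0.990), and for S100A14 they included LAD1 and CBLC (both 0.996). TGFBR2 and PTPRJ (both 0.996) and TM4SF1 (0.995) were closest to S100A4. S100P was followed by AQP3 (0.993), SLC44A2 and TTC7A (both 0.991). ELFN2, NAPRT (both 0.996) and SH3TC1 (0.995) were closest to S100A6, and CDCA7L (0.998), MGST2 and IAH1 (both 0.997) to S100A11. S100A10, whose group means ran only from 150 to 205 FPKM, had lower r. TMEM231 (0.864), PDIA4 (0.862) and EDAR (0.855) were its closest genes. For S100A10 0 genes reached an r of 0.95, which 139 genes did for S100P and 670 for S100A14. A low r over so small a range does not show a pattern that other genes lack. Among the members themselves the r was 0.992 between S100A9 and S100A14, 0.972 between S100A2 and S100A14, 0.983 between S100A6 and S100A11 and -0.97 between S100A2 and S100A4.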

How the data were processed

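mRNA of 31 cell line libraries was sequenced (150-bp paired-end). The authors mapped reads to hg38 with TopHat, after FastQC, and counted them per gene with HTSeq. The study's own test used those counts, which were not used here. The values the authors deposited, and used here, are FPKM in 1 table; the tool and annotation behind them and any use of strand are not given in the sources used here, and depth is known only relative to other libraries. Of 19225 entries, 4 with repeated symbols were left out, and 1212 genes were at 0 everywhere. Groups came from the sample labels.

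Changes were tested on log2(FPKM + 1) with R 4.3.3 and limma 3.58.1 (lmFit, eBayes with a trend, two-sided, Benjamini-Hochberg adjustment), each comparison on its own 2 groups; fold changes on this scale understate those of low genes. Within-range and 4-group values came from refits of all genes. Simulated data with known changes were used to test the fitting step. Positions came from GENCODE 44 (18278 symbols matched, 95.1%) and promoters from RefSeq. Other steps used Python 3.11.15 with pandas 2.3.3, numpy 2.4.6 and matplotlib 3.10.9.

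The members, lists and motifs were chosen with earlier results of these data known. All members were named. Of other lists, called genes with a group mean of at least 10 FPKM were named, up to 8 a list by fold change, along with the 3 non-S100 genes most like each member that reached that mean; 1 gene is not reported here. That rule covered the S100, partner, epidermal and C/EBP lists. Genes of the marker lists, S100A5, TLR4, KCNK3, CD36, THEM4 and THEM5 were named after their values were seen. Of the 46 genes of the epidermal differentiation list in the table, THEM4 and THEM5 were tested in the first comparison (both higher) and THEM4 in the second, where it passed only through A2780 OlaR. Alternatives were other pseudocounts, filters, scalings and thresholds, replicate blocks, library ranges, a fit of all groups and leaving out each library.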

Additional observations from a re-analysis of the deposited data

Results flagged for a closer look

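Of 34 sets of a member in a group with any spread, 4 had 1 library far from the rest by Dixon's test. Chance gives about 1 in 20 where values spread, a rate that does not hold for the last 2 sets below, where 1 library alone is above 0. S100A8 was at 1.04 FPKM in shCON replicate 5, where the next highest library was at 0.461. S100A9 was at 4.41 in A2780 OlaR replicate 1, where the next lowest was at 6.80. S100A7 was at 0.0543 in A2780 replicate 1, and S100A9 was at 0.0983 in shCEBPB replicate 2, with all other libraries of those groups listed at 0.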

How the results depend on the processing

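Of the 16 fold changes of members, 12 kept their direction and their side of the threshold under every alternative in which they were tested. With a filter of FPKM at least 5, S100A9 was not tested in the second comparison. These 12 include S100A9 in both comparisons and S100P in the second, which passed the filter only through the higher group and so had to differ. The fold changes outside these 12 concern S100A6, S100A10 and S100A11, whose differences were small, and the cause was not tested. In shCEBPB, S100A6 was -0.28 and called with quantile normalization (adjusted p = 0.0492), -0.74 and called within library numbers 1 to 3, and 0.035, of opposite sign, within 4 to 8. S100A11 was not called with a fold change of at least 2 (-0.17), a common sum (-0.16, adjusted p = 0.0559), a block by library number (-0.16, adjusted p = 0.0527) or within numbers 1 to 3 (-0.030), and leaving out 1 library gave -0.20 to -0.14. S100A10 was -0.0032 with quantile normalization and was called in the fit of all 4 groups (0.095, adjusted p = 0.0382), and leaving out 1 library gave 0.071 to 0.11. In A2780 OlaR, S100A10 was not called with a fold change of at least 2 (0.15) or a common sum (0.080).

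Requiring a fold change of at least 2 left 3539 genes called in the first comparison and 4446 in the second, from 10166 and 11190. The replicate number of the labels did not pair the libraries: the mean r of deviations between libraries with 1 number was -0.148 and -0.233, against 0.0234 and 0.0370 for different numbers. With that number as a replicate block 9885 and 10960 genes were called, and the same 6 and 8 members. FPKM give no counting error, so values under 1, such as those of S100A8, have no stated precision, and whether S100A8 and S100A9 were absent where listed at 0 was not detectable.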
